A study of Mus musculus with 53 samples.

Results

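Small intestinal enterocytes digest and absorb sugars, fats and protein across a brush border of microvilli, and 10 genes that carry out this work are described here across the series. They were chosen by name, as the gene identifiers that map to the symbols Fabp1, Fabp2, Apoa1, Apoa4, Apob, Lct, Sis, Slc5a1, Alpi and Vil1, and all 10 were found among the 55421 identifiers counted.

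The series held 53 bulk RNA-seq libraries of mouse intestine in 11 groups, 24 libraries from the small intestine and 29 from the proximal colon. All mice, WT included, carried VilCreER, a tamoxifen-inducible Cre driven by the villin promoter in the intestinal epithelium. Vil1, the gene that encodes villin, is itself 1 of the 10 genes, and it is also expressed in the colon. In the small intestine, VilCreER Apcfl/fl mice (n = 10) were compared with WT mice (n = 6), both taken on day 4 and both of mixed C57BL/6J background at N6. Tumours of VilCreER Apcfl/+ mice (n = 5), in which 1 Apc allele is floxed, were compared with normal small intestine of WT mice (n = 3), both on an inbred C57BL6/J background. All colonic groups had the mixed background. BA mice carried VilCreER with BrafV600E/+ and Alk5fl/fl, and their proximal colonic tumours (n = 4) were compared with WT proximal colon (n = 3). On day 30, normal proximal colon was taken from BA mice (n = 5), from BA mice given antibiotics as ampicillin, neomycin trisulphate and metronidazole at 1 g/L each with vancomycin at 500 mg/L in drinking water (n = 5), from A mice that carried VilCreER with Alk5fl/fl (n = 4), from A mice given sulindac at 0.4 g/L for 14 days (n = 4), and from WT mice (n = 4) given neither drug. The 4 mutant groups of day 30 were set against the same WT libraries, so genotype and drug were not separated where a drug was given. Tamoxifen was given at an age of 6 to 12 weeks. Each library was whole tissue, in which fewer enterocytes and less RNA per enterocyte cannot be told apart.

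Enterocytes arise from crypt stem cells and switch on digestive genes as they move onto the villus. In mice the lactase and sucrase of the brush border, and most apolipoprotein secretion by the gut, belong to the small intestine, while colonocytes mainly absorb water and ions. Apc restrains Wnt signalling, which maintains crypt cells. Fabp1 and Fabp2 encode fatty acid binding proteins of the enterocyte cytoplasm. Apoa1, Apoa4 and Apob encode apolipoproteins of the chylomicrons that carry absorbed fat, and Fabp1, Apoa1, Apoa4 and Apob are liver genes as well. Lct encodes lactase, Sis encodes sucrase-isomaltase and Slc5a1 encodes the sodium-glucose cotransporter SGLT1. Alpi encodes intestinal alkaline phosphatase of the brush border membrane, and Vil1 encodes villin, which bundles actin in microvilli.

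On GRCm38, with strand in brackets, the genes for lipid handling lie at chr6:71199827-71205023 (+) for Fabp1, chr3:122895072-122899506 (+) for Fabp2, chr9:46228580-46230466 (+) for Apoa1, chr9:46240696-46243459 (+) for Apoa4 and chr12:7977648-8016835 (+) for Apob. Those for sugar digestion and uptake lie at chr1:128284756-128328318 (-) for Lct, chr3:72888557-72967863 (-) for Sis and chr5:33104219-33162870 (+) for Slc5a1. Alpi lies at chr1:87098002-87101606 (-) and Vil1 at chr1:74409376-74435559 (+). Counts were summed over all exons of each gene. Apoa4 is the least certain of them, because 1266 of its exonic bases overlap the antisense genes Gm47528 and Gm10680 and the strand setting of the counting was not given. Alpi shared 5.56% of its 36-base words with other transcripts, most often those of Akp3.

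The 250 bases before the start site are printed for 4 genes on whose values the results below turn, Lct and Sis for the loss in the small intestine, Alpi for its course in tumours and Fabp2 for its levels in the colon. They are RefSeq sequences on GRCm38.p6, read 5′ to 3′ on the strand of the gene, from chr1:128328319-128328568 (-) for Lct, chr3:72967864-72968113 (-) for Sis, chr3:122894822-122895071 (+) for Fabp2 and chr1:87101607-87101856 (-) for Alpi. Capitals mark matches, on either strand, to short words for 4 families of intestinal transcription factor.
Lct: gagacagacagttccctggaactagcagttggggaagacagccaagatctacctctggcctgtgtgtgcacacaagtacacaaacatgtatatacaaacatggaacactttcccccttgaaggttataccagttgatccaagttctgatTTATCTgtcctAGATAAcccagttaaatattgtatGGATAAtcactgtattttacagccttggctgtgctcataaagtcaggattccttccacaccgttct
Sis: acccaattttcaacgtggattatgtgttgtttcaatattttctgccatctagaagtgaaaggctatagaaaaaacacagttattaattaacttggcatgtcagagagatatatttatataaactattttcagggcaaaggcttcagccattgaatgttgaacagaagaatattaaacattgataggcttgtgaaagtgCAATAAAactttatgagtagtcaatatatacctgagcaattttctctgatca
Fabp2: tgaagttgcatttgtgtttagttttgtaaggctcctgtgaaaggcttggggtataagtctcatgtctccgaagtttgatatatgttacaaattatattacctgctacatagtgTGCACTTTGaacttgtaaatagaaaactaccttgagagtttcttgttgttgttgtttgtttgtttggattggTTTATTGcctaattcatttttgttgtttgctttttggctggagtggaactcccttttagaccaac
Alpi: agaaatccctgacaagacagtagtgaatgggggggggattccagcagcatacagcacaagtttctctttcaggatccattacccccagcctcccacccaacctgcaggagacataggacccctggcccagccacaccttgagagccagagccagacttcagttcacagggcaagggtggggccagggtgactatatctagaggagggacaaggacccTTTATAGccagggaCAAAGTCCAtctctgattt

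The CDX word CNATAAA was found in 5 of the 10 promoters (Fabp1, Fabp2, Apob, Sis and Alpi) and in 10.2% of 27025 mouse promoters of the same length. The HNF4 word CAAAGNNCA was found in 4 (Fabp2, Apoa4, Apob and Alpi) against 5.47% of all promoters, and the GATA word NGATAA in 3 (Fabp1, Apob and Lct) against 23.0%. The HNF1 word was found in none of the 10 and in 0.411% of all promoters. The CDX word overlapped the TATA word TATAAA in Alpi and Apob and the GATA word in Fabp1, and TATAAA itself was present in 13.0% of all promoters. These matches describe the letters of the window and were not tested.

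Library totals ran from 10005066 to 32824795 counts except for Apcfl/fl library 1, which held 516985. Counts of the whole Apc gene, which cannot check the loss of a floxed exon, were 34.2 to 174 counts per 1000000 counts of the library (CPM) in Apcfl/fl and 64.0 to 97.3 CPM in its WT. Several libraries went against their labels in ways that touch the 10 genes. The library labelled Apcfl/+ tumour 2 carried the colonic genes Hoxb13 at 283 CPM and Car1 at 196 CPM, against at most 0.921 and 0.599 CPM in the other 4 tumours. The library labelled BA tumour 2 carried Fabp1 at 159 CPM and Sis at 176 CPM, against at most 7.03 and 12.9 CPM in the other 3 BA tumours, and its Car1 was 807 CPM against 3533 to 4938 CPM. The ileal gene Fabp6 was high in A libraries 1 and 3 of day 30 (482 and 88.8 CPM) and in WT proximal colon libraries 1 and 3 (47.5 and 42.9 CPM), against at most 5.74 CPM in the other colonic libraries. Summed pancreatic genes reached 846 and 477 CPM in WT day 4 libraries 1 and 4, 782 CPM in WT small intestine 1 and 580 CPM in Apcfl/+ tumour 5, against at most 33.1 CPM elsewhere. Values of the 10 genes without these libraries are given beside several of the results they touch. The other gene lists and the correlations were computed with all libraries only.

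The labelled tissues held for the other libraries. The 10 genes together took 2.61% to 4.81% of all counts in WT small intestine and 0.149% to 0.267% in WT proximal colon. Car1 was at most 0.399 CPM in WT small intestine and at least 12583 CPM in WT proximal colon. In WT small intestine of day 4, levels scaled for exon length to a total of 1000000 (TPM) were highest for Apoa1 at 14158 ± 1634 (SD, n = 6) and Fabp1 at 11134 ± 1329, followed by Apoa4 at 8617 ± 2106 and Fabp2 at 7726 ± 2460, whose ranges overlapped. Slc5a1, Vil1, Alpi and Sis followed with means of 2585, 1821, 1573 and 1518 TPM, and Lct and Apob came last at 818 and 693 TPM. In the second WT small intestine group Fabp1, Apoa1, Fabp2 and Apoa4 again came first, at 8457, 6967, 6716 and 5307 TPM. Apob was higher, at 2151 ± 540 TPM (SD, n = 3), and Alpi was lower and came last, at 641 ± 251 TPM. These differences between mice of different background were not tested.

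In WT proximal colon of day 30 the genes ranged from abundant through low to close to 0. Fabp2 at 2559 ± 814 TPM (SD, n = 4) and Vil1 at 701 ± 50.4 TPM remained abundant. Slc5a1, Alpi and Apob were low, at 68.3, 65.7 and 60.7 TPM, and their neighbouring ranges overlapped. Fabp1, Apoa1, Sis, Apoa4 and Lct lay between 0.093 (Lct) and 2.74 TPM (Fabp1). The plot of levels by small intestinal library shows that the 10 genes did not vary to the same degree.

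**Figure D1:**
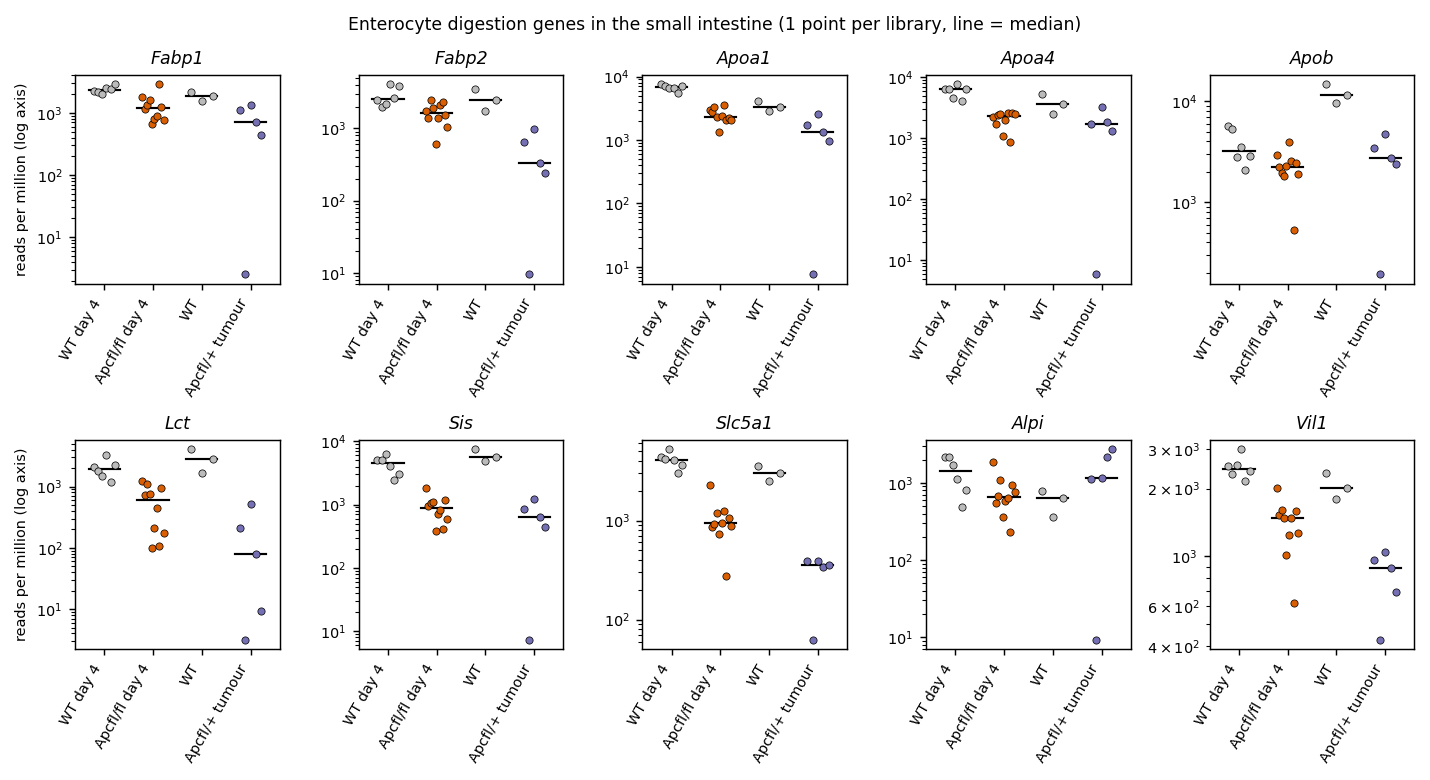
CPM of each of the 10 genes on a log axis in the 24 small intestinal libraries, 1 point per library and a line at each group median. Apcfl/+ tumour 2 is the lowest point for every gene, and Alpi in the other 4 tumours lies above its own WT.

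The first comparison asked what loss of Apc in the epithelium does to these genes within 4 days. All 10 were lower in Apcfl/fl than in WT small intestine by edgeR's quasi-likelihood test at a Benjamini-Hochberg adjusted p under 0.05, while 26.7% of the 17536 genes tested were lower. The fall was deepest in sugar digestion and uptake, where Sis, Slc5a1 and Lct were left with 16.9%, 20.7% and 23.6% of their WT means. It was shallowest in Fabp2, Apob and Fabp1, which kept 49.5%, 48.7% and 48.4%. The median log2 fold change of the 10 was -1.45, against -0.00036 over all genes tested.

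Sucrase-isomaltase had the largest fold change of the 10. In normalised CPM (scaled by TMM within the comparison), Sis was 2524 at the lowest, 5298 at the median and 7199 at the highest in WT, and 340, 803 and 1687 in Apcfl/fl. No Apcfl/fl library reached the lowest WT library. The log2 fold change was -2.57 ± 0.30 (SE, edgeR adjusted p = 3.74e-06). Slc5a1 was 3127, 4735 and 5992 in WT and 346, 841 and 2126 in Apcfl/fl, again without overlap, with Apcfl/fl library 1 the highest (log2 fold change -2.28 ± 0.27, edgeR adjusted p = 4.75e-06). Lct ranged from 1234 to 3613 with a median of 2287 in WT and from 90.1 to 1165 with a median of 537 in Apcfl/fl, so its libraries were spread over more than a 10-fold range after Apc deletion (log2 fold change -2.09 ± 0.48, edgeR adjusted p = 0.00147).

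Among the lipid genes the secreted apolipoproteins Apoa1 and Apoa4 had larger fold changes than the cytoplasmic binding proteins, a difference between genes that was not tested. Apoa1 was 5819, 7536 and 8966 normalised CPM at the lowest, median and highest in WT and 1191, 2287 and 3260 in Apcfl/fl (log2 fold change -1.71 ± 0.19, edgeR adjusted p = 2.28e-06). Apoa4 was 4302, 7376 and 8580 in WT and 993, 2144 and 2403 in Apcfl/fl (-1.84 ± 0.21, edgeR adjusted p = 3.52e-06). Both pairs of groups were apart. Fabp1 overlapped its WT range of 2329 to 3150 in only 1 Apcfl/fl library, number 8 at 3614, and the other 9 lay between 591 and 1671 (-1.05 ± 0.32, edgeR adjusted p = 0.00974). Fabp2 (-1.02 ± 0.27) and Apob (-1.04 ± 0.29) also overlapped, with edgeR adjusted p of 0.00492 and 0.00553.

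Of the structural and membrane genes of the brush border, Vil1 was 2236, 2858 and 3288 normalised CPM in WT and 784, 1360 and 1888 in Apcfl/fl, without overlap (log2 fold change -1.13 ± 0.17, edgeR adjusted p = 2.95e-05). Alpi was the most variable gene within WT, with 502, 1604 and 2607, and its groups overlapped (290, 598 and 1750 in Apcfl/fl, -1.20 ± 0.38, edgeR adjusted p = 0.0128). In all, 6 of the 10 genes had groups that did not overlap. That share was not computed over all genes, of which 54.2% were called higher or lower. All 10 stayed below the threshold when any 1 of the 16 libraries was left out, and also without both Apcfl/fl 1 and 8, which moved Fabp1 to -1.43. Without WT 1 and 4, the libraries with pancreatic genes, 9 remained and Alpi was -1.08 (edgeR adjusted p = 0.0568). When every small intestinal group shared 1 fit, Fabp1, Fabp2 and Alpi missed the threshold.

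The other epithelial lists gave mixed directions. Of 10 pan-epithelial markers such as Epcam and Cdh1, 2 were higher and 1 was lower in Apcfl/fl, and their summed level was 6677 to 9381 CPM against 6327 to 7513 CPM in WT. All 6 crypt and cycling markers were higher, and their sum was 1490 to 3856 CPM against 605 to 1264 CPM. Of 5 secretory cell markers 3 were lower and none was higher, with a median log2 fold change of -1.47 and Clca1, a goblet cell gene, at -2.16 (edgeR adjusted p = 0.000146). Of 6 immune markers 4 were lower, with a median of -1.42, and the part of these cells in the results was not tested. Relative to the geometric mean of the pan-epithelial markers in the same library, all 10 digestion genes were lower in Apcfl/fl, by 1.08 (Apob) to 2.66 (Sis) on the log2 scale (two-sided exact permutation tests over libraries, 10 comparisons, unadjusted p from 0.00025, the smallest they can give, to 0.0222). Of the 5 hepatocyte genes examined, 4 were tested, of which 1 was higher and 0 were lower. Alb was 84.5 CPM in Apcfl/fl library 7 and at most 3.74 CPM in the other libraries of both groups (log2 fold change 2.64, edgeR adjusted p = 0.134). Cps1, also on that list, was 759 to 2249 CPM in Apcfl/fl and 749 to 1184 CPM in WT. Its level in WT, where Alb was near 0, means that it cannot stand for hepatocyte RNA here.

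The fall extended beyond the 10. Of 65 other genes for lipid absorption, brush border hydrolysis, nutrient transport, microvillus structure and enterocyte transcription, 53 were lower and 2 were higher, with a median log2 fold change of -1.31. Over all genes tested 26.7% were lower and 27.5% higher. All 13 other hydrolases were lower, led by Ace, the dipeptidase that converts angiotensin, at -2.86. Of 15 other lipid absorption genes 13 were lower, among them Apoc3 at -2.08 and Mttp, which loads lipid onto apolipoprotein B, at -1.65, while Apoc2 was 0.0075 (edgeR adjusted p = 0.988). The 2 genes that rose were both of iron handling, the duodenal iron reductase Cybrd1 at 4.72 (edgeR adjusted p = 1.76e-06) and the iron exporter Slc40a1 at 2.32 (edgeR adjusted p = 0.000626). Of 13 transcription factors 9 were lower, including Hnf4g at -1.71 and Maf at -1.46, whereas Hnf4a was -0.11 (edgeR adjusted p = 0.452) and Cdx2 was -0.28 (edgeR adjusted p = 0.0834).

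The second comparison asked how far the same genes were lost in established Apcfl/+ tumours. With all 5 tumours, 6 of the 10 were lower (Fabp2, Apob, Lct, Sis, Slc5a1 and Vil1) and none was higher, while 6189 of the 20567 genes tested were lower and 61.5% were either higher or lower. The median log2 fold change of the 10 was -1.73 against 0.027 over all genes. The disaccharidases and the glucose cotransporter again led, with 5.98% (Lct), 10.4% (Slc5a1) and 10.9% (Sis) of the WT means remaining. Tumour 2, the library with colonic genes, held most of these genes near 0 and set much of the spread.

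Lct was 4063, 1711 and 2743 normalised CPM in WT 1 to 3 and 220, 2.82, 535, 82.1 and 9.40 in tumours 1 to 5. Every tumour lay below every WT library, and tumour 5 was nearly as low as tumour 2 (log2 fold change -4.06 ± 1.32, edgeR adjusted p = 0.0246). Slc5a1 was 3540, 2596 and 2969 in WT and 407, 55.7, 401, 351 and 361 in the tumours. The 4 tumours other than tumour 2 lay between 351 and 407, and Slc5a1 had the smallest adjusted p of the 10 (log2 fold change -3.27 ± 0.53, edgeR adjusted p = 0.000902). Sis was 7535, 4972 and 5631 in WT and 902, 6.46, 1267, 670 and 448 in the tumours, also apart (-3.20 ± 1.03, edgeR adjusted p = 0.0239).

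Vil1 fell by less than the sugar genes, from 2366, 1857 and 1981 normalised CPM in WT to 1005, 379, 1079, 921 and 700 in the tumours (-1.34 ± 0.31, edgeR adjusted p = 0.00575). Apob was 14859, 9881 and 11203 in WT and 3572, 172, 4891, 2863 and 2377 in the tumours (-2.11 ± 0.76, edgeR adjusted p = 0.0377), and Fabp2 was 3480, 1803 and 2455 in WT and 678, 8.45, 994, 343 and 245 in the tumours (-2.51 ± 0.97, edgeR adjusted p = 0.0497). Both were below WT in every tumour. The calls of Fabp2 and Apob were close to the threshold, and at least 1 of them or of Lct and Sis was lost when WT 1, 2 or 3 or tumour 1, 4 or 5 was left out, so that 2 to 8 of the 10 genes were lower over these refits. Without both WT 1 and tumour 5, the libraries with pancreatic genes, Slc5a1 alone remained lower (-3.20, edgeR adjusted p = 0.0113), and Vil1 was -1.19 (edgeR adjusted p = 0.0511).

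Alpi went the other way in 4 of the 5 tumours. It was 791, 374 and 618 normalised CPM in WT and 1163, 8.25, 1203, 2283 and 2736 in the tumours. Tumours 1, 3, 4 and 5 each lay above the highest WT library, and tumour 2 lay far below the lowest. In CPM, Alpi was 364 to 787 in these WT mice and 9.26 to 2720 in the tumours. It was 483 to 2149 CPM in the WT mice of day 4, and the part of this WT difference was not tested. With all 5 tumours the log2 fold change was 1.31 ± 1.15 (edgeR adjusted p = 0.343). Without tumour 2 it was 1.64 (edgeR adjusted p = 0.00438), and Alpi was the only 1 of the 10 genes that was higher, where 35.8% of 20351 genes were higher. Relative to the pan-epithelial markers, which were 7437 to 11125 CPM in sum in the tumours and 4934 to 5509 CPM in WT, Alpi differed by -0.67 on the log2 scale with all 5 tumours (exact permutation p = 0.893) and by 0.77 without tumour 2 (exact permutation p = 0.229, where 4 against 3 libraries cannot go below 0.0571).

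Without tumour 2, 8 of the 10 genes were lower, where 35.3% of all genes were. Fabp1 (-1.00, edgeR adjusted p = 0.0261) and Apoa1 (-1.01, edgeR adjusted p = 0.0175) were added, and Apoa4 was -0.85 (edgeR adjusted p = 0.0578). Fabp1 was 2163, 1596 and 1850 normalised CPM in WT and 1178, 1363, 754 and 443 in tumours 1, 3, 4 and 5. Apoa1 was 4149, 2896 and 3284 in WT and 1784, 2654, 1413 and 982 in the same tumours, so that neither gene overlapped. Apoa4 overlapped, since tumour 3 at 3439 lay above WT 2 at 2572.

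Relative to the pan-epithelial markers, the 9 genes other than Alpi were lower in every tumour than in every WT library (exact permutation p = 0.0357, the smallest p that 5 against 3 libraries allow, 10 comparisons). How many of all genes were so was not computed. Of the 10 markers, 7 were themselves higher in the tumours and 0 were lower, with a median log2 fold change of 0.74. When libraries were scaled to these markers, 56.9% of 20567 genes were called lower by edgeR. The tumours also held more fibroblast RNA, 2832 to 4045 CPM against 1099 to 1418 CPM for 6 markers of which 5 were higher. Alb was 18.2 to 56.3 CPM in the tumours and 0.0535 to 0.598 CPM in WT, while the hepatocyte gene Serpina1a was at most 0.109 CPM in both. Cps1, also on the hepatocyte list, was 4.09 to 834 CPM in the tumours and 1095 to 1234 CPM in WT (log2 fold change -0.93, edgeR adjusted p = 0.444). Its high level in WT, where Alb was near 0, means that it cannot stand for hepatocyte RNA here. The part of these cells in the levels of the digestion genes was not tested.

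Most neighbouring genes were lower as well. Of 64 other genes tested, 42 were lower and 6 were higher, with a median of -1.72. All 13 other hydrolases were lower, from the aminopeptidase Anpep at -4.95 to Ggt1 at -1.85, and all 10 microvillus genes were lower, from Pls1 at -2.27 to Eps8 at -0.53. Cybrd1 was higher by 5.92 (edgeR adjusted p = 0.0209), Slc40a1 by 4.21 (edgeR adjusted p = 0.004) and the iron and metal ion importer Slc11a2 by 3.75 (edgeR adjusted p = 0.0309). The cholesterol importer Npc1l1 fell by 3.54 on the log2 scale (edgeR adjusted p = 0.00818), while the lipoprotein receptor Scarb1 was higher by 1.55 (edgeR adjusted p = 0.0201).

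Acute loss and tumour loss were then compared directly, as the tumour effect minus the acute effect, each against its own WT. The comparison spans mice of different background and time, which cannot be told apart from the contrast. None of the 10 genes passed edgeR's quasi-likelihood test of the difference, where 24.7% of 22202 genes did; 1 of the 10, Alpi, had an unadjusted p under 0.05, and DESeq2 called 0. Alpi differed most, by 2.53 ± 1.03 on the log2 scale (edgeR adjusted p = 0.0759). Its mean level was 593 CPM in the WT mice of the tumour arm and 1405 CPM in those of the acute arm. Lct (-1.98, edgeR adjusted p = 0.226), Fabp2 (-1.52, edgeR adjusted p = 0.185), Apob (-1.08, edgeR adjusted p = 0.286) and Slc5a1 (-0.99, edgeR adjusted p = 0.199) had negative differences that missed the threshold. Apoa1 and Apoa4 differed by 0.36 and 0.65, Fabp1 and Vil1 by -0.27 and -0.23, and Sis by -0.62, none past the threshold. The SE of the difference was 0.35 for Vil1 and 0.56 to 1.17 for the other genes.

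**Figure D2:**
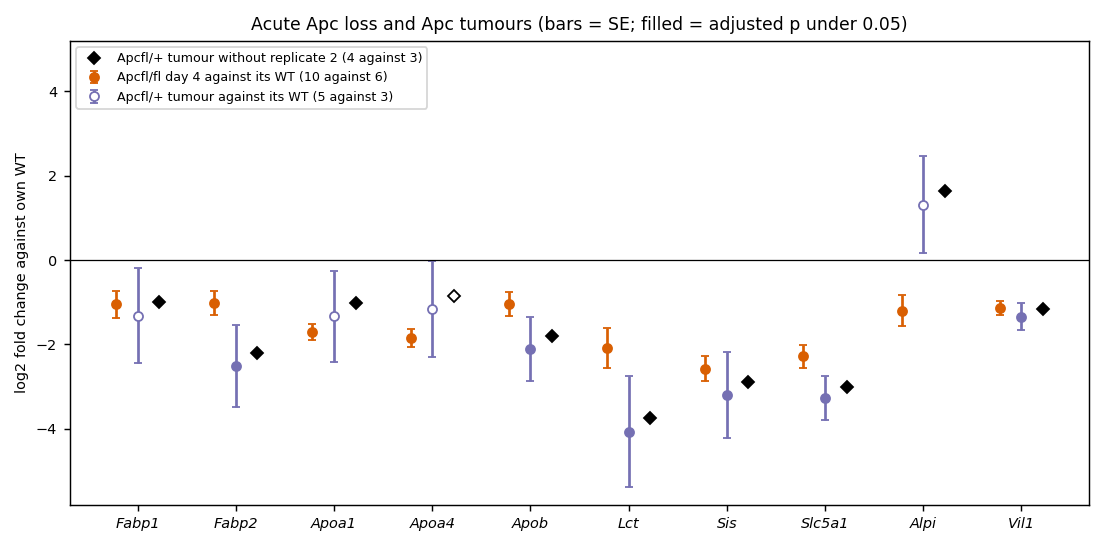
Log2 fold change against own WT for the 10 genes after acute Apc deletion and in Apcfl/+ tumours, with bars for the SE, filled points for an edgeR adjusted p under 0.05 and diamonds for the tumours without tumour 2. Acute values lie between -2.57 and -1.02, whereas tumour values lie between -4.06 for Lct and 1.31 for Alpi.

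The Alpi difference passed the threshold without tumour 2, at 2.85 (edgeR adjusted p = 0.00400, where 26.7% of 22021 genes did). When libraries were scaled to the pan-epithelial markers, the median of all genes moved to -0.66 and 4 of the 10 genes (Apob, Fabp2, Slc5a1 and Vil1) were lower in tumours than after acute loss, where 34.7% of all genes were. Among the neighbouring genes 8 of 65 were lower and 4 were higher in this difference as first fitted. Over all 22202 genes 12.3% were lower and 12.4% higher, so these counts do not set the neighbouring genes apart. The hydrolases Anpep (-2.98, edgeR adjusted p = 0.00508) and Dpp4 (-2.18, edgeR adjusted p = 0.00225) were lower by more in tumours. Slc11a2 (3.80, edgeR adjusted p = 0.0063), Scarb1 (1.74, edgeR adjusted p = 0.00279), Elf3 (1.26, edgeR adjusted p = 0.00156) and Prdm1, a repressor of the adult enterocyte programme before weaning (1.27, edgeR adjusted p = 0.000465), were the 4 that were higher.

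Across all 24 small intestinal libraries the 10 genes varied together. The pairwise Pearson correlation of their log2 CPM was 0.47 to 0.98 with a median of 0.80 over 45 pairs, as a description of libraries that share groups. Apcfl/+ tumour 2, the lowest library for every gene, was included and can raise these values. No correlation was computed without that library. Alpi followed the mean of the 10 least closely (r = 0.75) and Sis most closely (r = 0.97). Outside the gene lists, Mfsd4b2 (r = 0.98), Btnl1 (0.98), 2010106E10Rik (0.98), Hkdc1 (0.97) and H2-Q2 (0.97) were most like the mean of the 10 among 10566 genes.

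In the proximal colon the genes that define small intestine were close to 0, and the results turned on Fabp2, Apob, Slc5a1, Alpi and Vil1. In BA tumours, 1 of the 10 was lower and none was higher, where 5.71% of 19188 genes were lower. That gene was Fabp2, at 582, 926 and 716 normalised CPM in WT 1 to 3 and 167, 398, 166 and 190 in tumours 1 to 4. All tumours lay below WT (log2 fold change -1.69 ± 0.38, edgeR adjusted p = 0.0206), but the call was lost when tumour 3, tumour 4 or any 1 WT library was left out. Summed colonocyte markers were also lower in every tumour, at 823 to 5023 CPM against 12742 to 22970 CPM in WT, and 1 of the 3 tested passed. Of the other cell types, 3 of 8 smooth muscle markers were lower, 2 of 6 fibroblast and 3 of 6 immune markers were higher, and their part in the Fabp2 value was not tested. Vil1 was 537, 541, 643 and 622 in the tumours against 470, 811 and 646 in WT and overlapped (-0.13, edgeR adjusted p = 0.808).

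The small intestinal genes had the largest fold changes in BA tumours, but they rested on tumour 2. Fabp1 was 0.166, 205, 0 and 6.80 normalised CPM in tumours 1 to 4 and 0.775, 0.228 and 2.27 in WT (log2 fold change 5.57 ± 2.36, edgeR adjusted p = 0.158). Lct was 0.373, 166, 0.170 and 1.02 against 0.161, 1.14 and 2.88 (4.92 ± 2.31, edgeR adjusted p = 0.201). In each case tumour 2 alone stood high. Apoa4 (5.00), Apoa1 (2.59) and Sis (1.52) had the same shape, and Apob (0.88) and Alpi (0.76) did not pass either. Without it Fabp1 was 1.08, Apoa4 0.50, Lct was -1.37, Sis -1.19 and Apoa1 -2.13, none past the threshold, while Slc5a1 was lower by 0.91 (edgeR adjusted p = 0.0238). With all 4 tumours, the other 62 genes tested gave 5 higher and 3 lower, with a median of 0.18. Over all 19188 genes 7.46% were higher and 5.71% lower, so these counts do not set the 62 apart.

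**Figure D3:**
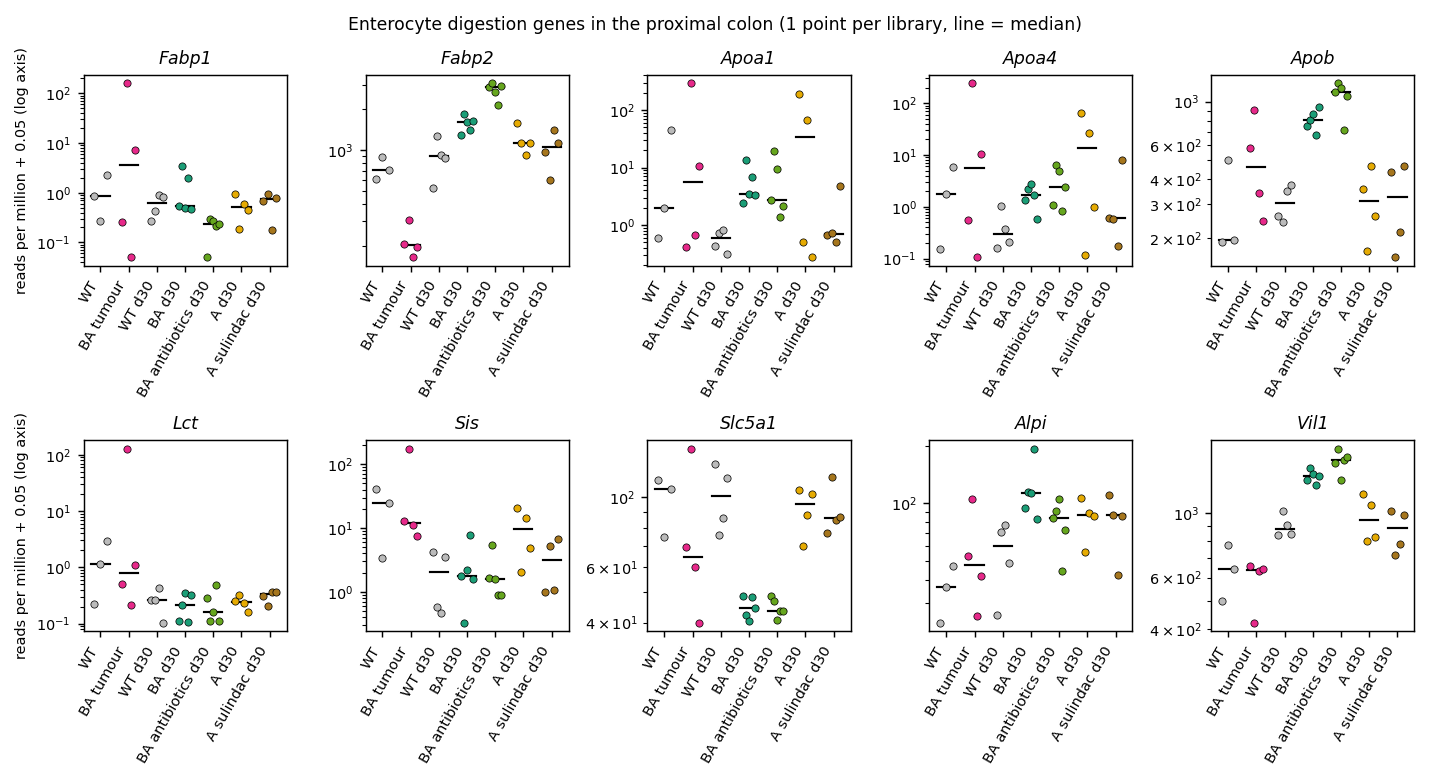
CPM of each of the 10 genes, with 0.05 CPM added so that 0 can be drawn on the log axis, in the 29 proximal colon libraries, 1 point per library and a line at each group median. Fabp2, Vil1 and Apob lie above 100 CPM in each group, while Fabp1, Lct and Apoa4 lie near 1 CPM or below apart from BA tumour 2 and a few other libraries.

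On day 30 the colon of BA mice carried more of several of the digestion genes. By edgeR's quasi-likelihood test 6 were higher (Apoa1, Apoa4, Apob, Alpi, Fabp2 and Vil1) and 1 was lower (Slc5a1), where 25.8% and 29.3% of 17471 genes were higher and lower. Fabp1 (1.42, edgeR adjusted p = 0.0913) and Sis (0.50, edgeR adjusted p = 0.618) did not pass, and Lct was too low to be tested, at 0.215 CPM in WT and 0.172 CPM in BA on average. The 10 genes took 0.348% to 0.425% of all counts in BA against 0.179% to 0.267% in WT.

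Apob was the clearest rise, from 237, 231, 337 and 354 normalised CPM in WT 1 to 4 to 790, 843, 911, 699 and 994 in BA 1 to 5. The groups were far apart (log2 fold change 1.55 ± 0.15, edgeR adjusted p = 9.44e-06). Slc5a1, the glucose cotransporter, fell from 117, 72.7, 83.4 and 109 in WT to 50.9, 44.3, 42.9, 49.6 and 47.1 in BA, also apart (-1.02 ± 0.13, edgeR adjusted p = 5.69e-05). Vil1 rose from 770, 967, 878 and 801 to 1366, 1493, 1432, 1280 and 1418 (0.71 ± 0.082, edgeR adjusted p = 3.04e-05), again without overlap.

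Fabp2 was 484, 1210, 890 and 829 normalised CPM in WT and 1351, 1935, 1701, 1458 and 1736 in BA (log2 fold change 0.94 ± 0.21, edgeR adjusted p = 0.00296). Alpi was 23.8, 67.9, 74.5 and 45.9 in WT and 99.2, 120, 121, 199 and 87.6 in BA (1.24 ± 0.32, edgeR adjusted p = 0.00612). In both genes the lowest BA library lay above the highest WT library. Apoa1 rose at a low level, from 0.347, 0.660, 0.729 and 0.254 in WT to 2.47, 14.1, 3.59, 7.12 and 3.53 in BA, without overlap (3.61 ± 0.58, edgeR adjusted p = 0.000343). Apoa4 overlapped, with 0.0992 to 0.964 in WT and 0.570 to 2.87 in BA (2.16 ± 0.58, edgeR adjusted p = 0.00849), and both apolipoproteins missed the threshold when all colonic groups shared 1 fit.

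These rises stood beside higher pan-epithelial markers, and whether the epithelial share of the RNA was larger was not tested. All 10 markers were higher in BA, by 0.46 (St14) to 2.72 (Krt18) on the log2 scale. Their sum was 17382 to 19994 CPM against 9285 to 11076 CPM in WT. Of the other cell types, 6 of 8 smooth muscle markers and 5 of 6 fibroblast markers were lower. Of 3 colonocyte markers tested 2 were lower, and Car1 was 0.065 (edgeR adjusted p = 0.545). When libraries were scaled to the pan-epithelial markers, the median of all genes moved to -1.02, Apoa1 and Apob were still higher, Slc5a1 and now Vil1 (-0.28) were lower, Fabp2 was -0.038, and the call of Alpi and of Apoa4 was lost. Under that scaling 2.74% of all genes were higher and 88.1% lower. As a ratio to the markers within each library, Apob was higher by 0.57 and Slc5a1 lower by 1.99 on the log2 scale (exact permutation p = 0.0159 for each, the smallest that 5 against 4 libraries allow), and Fabp2 differed by 0.0037 (exact permutation p = 0.968). Alb was 3.90, 36.4, 6.03, 29.6 and 9.25 CPM in BA 1 to 5 and at most 0.430 CPM in WT, and BA 2 and 4 were also the highest in Apoa1 and Fabp1. The other hepatocyte genes did not all follow, with Ttr at 11.6 to 18.5 CPM in BA and 5.81 to 32.2 CPM in WT and Serpina1a at most 0.560 CPM. Cps1, also on the hepatocyte list, was 0.557 to 2.52 CPM in BA and 70.1 to 95.9 CPM in WT (log2 fold change -5.47, edgeR adjusted p = 4.06e-08). It was 749 to 1234 CPM in WT small intestine, where Alb was at most 3.74 CPM, so Cps1 cannot stand for hepatocyte RNA here. The part of hepatocyte genes in the apolipoprotein values was not tested.

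In BA mice given antibiotics, 5 of the 10 were higher than in untreated WT (Apoa1, Apoa4, Apob, Fabp2 and Vil1) and Slc5a1 was lower, where 21.8% and 17.8% of 17569 genes were higher and lower. Fabp1 and Lct were not tested for low counts. Fabp2 was 3099, 3375, 2674, 2187 and 2962 normalised CPM in the 5 treated BA libraries and 497, 1227, 898 and 838 in WT (log2 fold change 1.72 ± 0.23, edgeR adjusted p = 0.000279). Apob was 1185, 1354, 1183, 730 and 1083 against 244, 235, 340 and 358 (1.91 ± 0.20, edgeR adjusted p = 4.58e-05), and both genes stood apart from WT. Slc5a1 was 41.1 to 51.6 against 73.8 to 120 (-1.06 ± 0.14, edgeR adjusted p = 0.000233). Vil1 was higher by 0.85, Apoa1 by 3.83 and Apoa4 by 3.03, the last 2 at low levels, while Alpi (0.62) and Sis (0.062) did not pass. Relative to the pan-epithelial markers Fabp2 was higher by 0.83 and Apob by 0.95 on the log2 scale (exact permutation p = 0.0159 for each).

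Antibiotics were then compared within BA mice. Fabp2 was the only 1 of 8 genes tested that passed, higher by 0.77 ± 0.13 on the log2 scale (edgeR adjusted p = 0.00361), where 4.53% of 16680 genes were higher. Its normalised CPM were 1313, 1880, 1654, 1418 and 1686 in untreated BA 1 to 5 and 2950, 3194, 2548, 2069 and 2809 in treated BA 1 to 5. Every treated library exceeded every untreated one. The call was lost when all colonic groups shared 1 fit. Apob (0.35, edgeR adjusted p = 0.141), Alpi (-0.63, edgeR adjusted p = 0.123) and Slc5a1 (-0.053, edgeR adjusted p = 0.669) did not pass, nor did Apoa4 (0.85), Apoa1 (0.20), Vil1 (0.12) and Sis (-0.44).

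**Figure D4:**
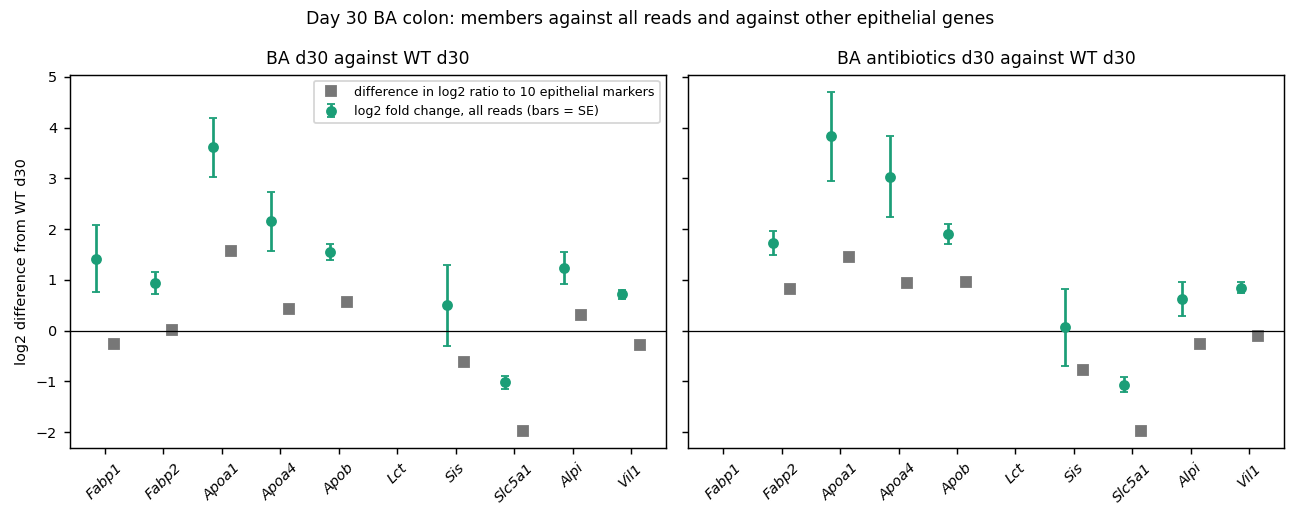
Difference from WT on day 30 in proximal colon, on the log2 scale, for BA (left) and BA with antibiotics (right), as the fold change over all reads with its SE (circles) and as the ratio to the pan-epithelial markers (squares, no error drawn). Genes too low to be tested are left blank. For BA, Apob stays above 0 on both scales and Slc5a1 below 0 on both, whereas Fabp2 and Vil1 move from 0.94 and 0.71 to 0.0037 and -0.28.

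Loss of Alk5 alone left no member past the threshold. In A mice 0 of the 9 genes tested were called, where 0.141% of 17713 genes were; 3 had an unadjusted p under 0.05 in edgeR's test, and DESeq2 called 2. Those 3 were Apoa1, Apoa4 and Sis. Apoa1 was 200, 0.448, 66.6 and 0.216 normalised CPM in A 1 to 4 and 0.274 to 0.778 in WT (log2 fold change 6.93 ± 1.77, edgeR adjusted p = 0.358). The high values were those of A 1 and 3, the libraries with Fabp6, and without them Apoa1 was -0.72. Apoa4 (5.84) and Sis (2.28) were highest in the same 2 libraries. Fabp2 (0.37), Apob (0.0078), Slc5a1 (-0.18), Alpi (0.56), Fabp1 (-0.22) and Vil1 (0.062) were each within the spread between libraries.

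In A mice given sulindac, 0 of the 8 genes tested differed from WT by edgeR, where 0.0507% of 17742 genes did, with 0 at an unadjusted p under 0.05 and 0 by DESeq2. The fitted differences were 1.62 for Apoa1, 0.67 for Sis, 0.55 for Alpi and between -0.16 (Slc5a1) and 0.20 (Fabp2) for the others. Against untreated A mice 0 of 9 were called, where 0% of 17568 genes were and DESeq2 called 5 genes, none of them among the 10. Apoa1 alone had an unadjusted edgeR p under 0.05, at -5.28 ± 1.68, and it was 2.35 without A 1 and 3. Slc5a1 was 82.5 to 112 normalised CPM with sulindac and 67.4 to 109 without, a difference of 0.032 on the log2 scale, and Vil1 was 693 to 1103 against 775 to 1205.

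Among the neighbouring genes in the colon of BA mice on day 30, 23 of 58 tested were higher and 20 were lower, with a median of 0.033, so that they did not move as 1 group. Over all genes tested 25.8% were higher and 29.3% lower. The peptide transporter Slc15a1 rose by 4.06 (edgeR adjusted p = 8.15e-06) and the glutamate transporter Slc1a1 fell by 3.31 on the log2 scale (edgeR adjusted p = 1.33e-05). Of 10 microvillus genes 9 were higher, led by Ezr, which links actin to the membrane, at 1.55 (edgeR adjusted p = 2.31e-06). Their median was 0.58, against 0.73 for the 10 pan-epithelial markers, all of which were higher, so the count does not set microvillus genes apart from other epithelial genes. The acyltransferase Mogat2 was higher by 1.79 (edgeR adjusted p = 5.83e-06) and the fatty acid transporter Cd36 fell by 1.38 on the log2 scale (edgeR adjusted p = 0.00116). Creb3l3, a factor that acts on apolipoprotein genes, was higher by 2.59 (edgeR adjusted p = 8.08e-05). In the A groups 0 of these genes passed edgeR's test.

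Across the 29 colonic libraries the 10 genes did not vary as a unit. Their pairwise correlations ran from -0.68 to 0.92 with a median of 0.29 over 45 pairs. BA tumour 2 and A 1 and 3 of day 30 were included, and no correlation was computed without them. Fabp2 (r = -0.0031) and Vil1 (r = -0.086) showed almost no correlation with the mean of the 10, which followed Apoa4 (r = 0.94) and Apoa1 (r = 0.93). The genes most like that mean were Svbp (r = 0.60), Lgals2 (0.60), Tmem238 (0.59), Gm10736 (0.58) and Rps15 (0.58) among 10444 genes, a looser likeness than in the small intestine.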

How the data were processed

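The authors made paired-end libraries of 36-base reads with a TruSeq RNA v2 kit and deposited 1 table of read counts per gene for the 53 libraries, and all its columns were used (0 left out). Per the labels, reads were handled with FastQC 0.11.8, Trim Galore 0.6.4, HISAT2 2.1.0 and featureCounts 1.6.4 on GRCm38. The strand setting of the counting was not given in the sources used here.

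Groups were taken from the labels. Nothing ties a library to more than its label, so p-values measure the spread between these libraries, and intervals cover that spread only. The 10 genes and all gene lists were chosen with earlier results of these data known. All 10 genes were to be named in every comparison, with at most 5 genes from any other list, its extremes among them. The genes most like the 10 were the 5 of highest Pearson correlation with their mean log2 CPM in each tissue.

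Each comparison was fitted alone in R 4.3.3 with edgeR 4.0.16 (filterByExpr, TMM scaling, quasi-likelihood test, two-sided), with Benjamini-Hochberg adjustment over all genes tested and a threshold of 0.05. A comparison was a group against its own WT, a drug within a genotype, or the tumour effect minus the acute effect. Levels between genes were counts per exon length scaled to 1000000 per library. Ratios to 10 pan-epithelial markers used a pseudocount of 0.5 CPM and exact permutation tests over libraries. On simulated counts the test recovered 66% of 2-fold and 94% of 4-fold changes for acute Apc deletion (17536 genes), 29% and 89% for Apc tumours (20567 genes) and 62% and 94% for day 30 A mice (17713 genes). Those counts were drawn at the average spread for each level of expression, without an outlying library. Recovery of the 10 genes, whose SE in Apc tumours ran from 0.31 (Vil1) to 1.32 (Lct), can be lower and was not simulated. Alternatives were DESeq2, other scalings, no filter, the replicate number as a block, 1 fit per tissue and leaving libraries out; leaving out libraries that went against their labels as a set was chosen after seeing the data. Promoters are RefSeq sequences and gene positions are from the GENCODE annotation of GRCm38.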

Additional observations from a re-analysis of the deposited data

Results flagged for a closer look

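In groups of 4 to 10 libraries, the highest or lowest CPM of a gene was set against the others by the size of its gap relative to the range of the group (Dixon's test). Of 90 gene and group pairs, 15 stood apart, and these came from 7 libraries. The cutoffs assume independent, normally spread values. CPM were not log-transformed and the genes varied together within libraries, so no rate by chance can be set beside this count.

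BA tumour 2 gave 6 of them. Fabp1 was 159 CPM against 0 to 7.03 CPM in the other 3 BA tumours, Apoa1 293 against 0.356 to 10.4, Apoa4 242 against 0.0557 to 10.6, Lct 129 against 0.167 to 1.06 and Sis 176 against 7.59 to 12.9. Vil1 was the lowest of its group there, 421 CPM against 633 to 659. The same library therefore held more of 5 small intestinal genes and less villin than the other BA tumours.

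In the small intestine, Slc5a1 was 62.5 CPM in Apcfl/+ tumour 2, below 338 to 391 CPM in the other tumours. Fabp1 was 2868 CPM in Apcfl/fl 8 against 657 to 1789 CPM in the other Apcfl/fl libraries. Slc5a1 at 2277 CPM and Alpi at 1874 CPM were highest in Apcfl/fl 1, the library of lowest depth, against at most 1237 and 1087 CPM.

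On day 30 in the colon, BA 4 was highest in Sis (7.84 against at most 2.19 CPM) and Alpi (194 against at most 115 CPM). Sis was 5.32 CPM in BA with antibiotics 2 against at most 1.62 CPM. In A mice given sulindac, library 4 was highest in Apoa1 (4.72 against at most 0.683 CPM) and Apoa4 (8.05 against at most 0.571 CPM).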

How the results depend on the processing

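Whether the numbers of the labels pair the libraries could not be settled. The paper included batch in the model behind its gene signatures, but the labels used here name no batch. Deviations of same-numbered libraries from their group means correlated at -0.50 to 0.345 over the 9 comparisons of 2 groups, in none of which every pair exceeded 0.1. In no comparison did every library correlate best with its own number. Those that did ranged from 0 of 3 in BA tumours to 3 of 4 in day 30 BA and day 30 A against WT, which does not exclude pairing. With the replicate number as a block, the Apc tumour comparison called 8333 genes instead of 12650 and 2 of the 10 lower instead of 6 (Slc5a1 and Vil1), with Alpi at -0.70. BA tumours called 931 genes and 0 of the 10 lower, with Fabp1 at -0.11 and Apoa1 at -0.47. With this block A mice against WT had Apob at -0.068, A mice with sulindac called 2 genes against WT (Apob -0.056) and 1 gene against A mice (Alpi -0.037), and antibiotics within BA called 1284 genes (Apoa1 -0.14). No other count of calls moved by over 1.5 times under the block.

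The 10 acute calls held under DESeq2, RLE size factors, no low-count filter, the block and scaling to the pan-epithelial markers. RLE size factors changed no call or direction of the 10 in any comparison. DESeq2 called 3798 genes in BA tumours (2527 by edgeR), 136 in A mice against WT (25) with 2 of the 10 higher, 111 in A mice with sulindac against WT (9) and 5 against A mice (0). Without a low-count filter 3 of the 10 were higher in BA tumours and 2 in A mice (72 genes called), sulindac gave 24 genes against WT and 1 against A mice (Alpi -0.010), and antibiotics within BA gave 1 of the 10 lower. With all groups of a tissue in 1 fit, BA tumours called 6345 genes with 3 of the 10 higher, BA with antibiotics had 3 of the 10 higher than WT, antibiotics within BA called 533 genes instead of 2172 with 0 of the 10 higher, sulindac called 23 genes against WT, Apob was -0.0066 in A mice and Alpi -0.0034 for sulindac within A. The cause of these changes was not tested.

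Scaling to the pan-epithelial markers moved the median of all genes to -0.71 in Apc tumours, -1.02 in day 30 BA, -0.93 in BA with antibiotics and -0.66 in the tumour minus acute contrast. In Apc tumours 1678 genes were then higher and 11702 lower, instead of 6461 and 6189. BA tumours called 1554 genes and 0 of the 10 lower. Day 30 BA called 15877 genes with 2 of the 10 higher and 2 lower (Fabp2 -0.038, Sis -0.50, Vil1 -0.28), and BA with antibiotics 14760 genes (Sis -0.99, Alpi -0.31, Vil1 -0.11). Antibiotics within BA called 1080 genes with 2 of the 10 higher. A mice had Apob at -0.10 and Vil1 at -0.030, and sulindac called 15 genes against WT (Apob -0.068) and 1 against A mice (Alpi -0.022). The tumour minus acute contrast called 8545 genes instead of 5486 with 4 of the 10 lower, Apoa1 at -0.42 and Apoa4 at -0.12. As ratios to Epcam alone, Vil1 was 0.13 in BA tumours and 0.075 in BA with antibiotics, and Fabp1 was 0.0024 in day 30 BA.

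Leaving out each library in turn gave 2 to 8 of the 10 lower and 0 to 1 higher in Apc tumours. In BA tumours it gave 0 to 2 lower and 696 to 3641 genes, with Apoa1 at -2.13 to 6.28, Lct -1.37 to 6.09, Sis -1.19 to 2.14, Slc5a1 -0.91 to 0.051 and Vil1 -0.33 to 0.059. Sis ran from -0.43 to 1.02 in day 30 BA and from -0.74 to 0.59 in BA with antibiotics. A mice gave 15 to 28 genes (Apob -0.24 to 0.22, Vil1 -0.075 to 0.15, Fabp1 -0.66 to 0.091). Sulindac against WT gave 4 to 18 genes (Apob -0.16 to 0.32, Fabp1 -0.13 to 0.44, Vil1 -0.13 to 0.076), and within A mice Apob was -0.16 to 0.34, Alpi -0.21 to 0.23, Fabp2 -0.32 to 0.036, Slc5a1 -0.097 to 0.13 and Vil1 -0.19 to 0.051. Antibiotics within BA gave 1300 to 2683 genes and 1 to 2 of the 10 higher (Sis -1.21 to 0.48, Apoa1 -0.68 to 0.78). The tumour minus acute contrast gave 3603 to 7295 genes and 0 to 1 of the 10 higher (Fabp1 -0.61 to 0.046, Apoa1 -0.029 to 0.68).

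Sets of libraries that went against their labels were left out after seeing the data. Without BA tumour 2 and WT 1 and 3, BA tumours called 599 genes (Apob -0.55, Lct -1.08, Alpi -0.044), a fit in which the lone WT library was assumed to vary like the tumours. Without A 1 and 3, A mice called 16 genes (Apoa1 -0.72, Apob -0.58, Vil1 -0.23), and sulindac within A had Apoa1 at 2.35, Apoa4 at 2.25, Sis at 0.074 and Vil1 at 0.20. Without Apcfl/+ tumour 2 and Apcfl/fl 1 and 8, the tumour minus acute contrast called 8372 genes with 1 of the 10 higher and Fabp1 at 0.43. Without the 4 libraries with pancreatic genes, 9 of the 10 were lower after acute deletion and 1 in Apc tumours, and the tumour minus acute contrast called 3134 genes with Fabp1 at 0.029. Low counts kept Lct out of all 6 day 30 comparisons and Fabp1 or Apoa4 out of some of them.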
